A study of Mus musculus with 15 samples.

Results

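The Myc, Max and Mxd network is a family of transcription factors, measured here in normal mouse choroid plexus and in its papillomas and carcinomas. The members were 10 named genes, Myc, Mycn, Mycl, Max, Mxd1, Mxd3, Mxd4, Mxi1, Mnt and Mlx. They were chosen by name with earlier results of these data known, as were the gene lists used below. All 10 of 10 had a probe set on the array that was paired with exactly 1 gene symbol. They stand among 22180 genes tested in the same way. RNA was taken from 15 snap-frozen mouse tissues and hybridised to 1 single-channel Affymetrix array each. The 5 carcinomas carried the genotype Atoh1-Cre; Myc/Myc; p53fl/fl, the 5 papillomas Atoh1-Cre; Myc/Myc, and the 5 normal samples Myc/Myc; p53fl/fl with no Cre, so that all groups shared the Myc alleles and a mixed C57Bl/6 and 129 background. The Cre gene was under the control of Atoh1, a gene of certain hindbrain progenitors. Tumours were taken when the animals showed signs of disease, and no ages are given. The labels do not say how the Myc alleles were built, and whether the Myc probe set reads their transcript was not tested. The comparison of either tumour type with normal tissue also differs in Cre, and the papillomas differ from normal tissue and from carcinomas in lacking the floxed p53 alleles.

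All members are basic helix-loop-helix leucine zipper proteins. Myc, N-Myc (Mycn) and L-Myc (Mycl) activate transcription as dimers with Max at a DNA element called the E-box, CACGTG. Mxd1, Mxd3, Mxd4, Mxi1 and Mnt compete for the same Max and bring Sin3 and histone deacetylase corepressors to such sites. Mlx is a Max-like partner of some Mxd proteins, of Mnt and of the glucose-sensing factors Mlxip (MondoA) and Mlxipl (ChREBP). In many tissues Myc is linked to growth and division, while Mxd genes other than Mxd3 are linked to differentiation, and Mxd3 has been tied to dividing cells.

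Values are RMA summaries on the log2 scale, on which a difference of 1 is a doubling. The choroid plexus epithelial markers were strongly expressed in every array, with a mean of 9 markers at 12.36 to 12.71 in carcinomas, 12.46 to 12.74 in papillomas and 13.01 to 13.08 in normal tissue, and Ttr, the transthyretin gene, was at 14.42 or above in all of them. The mean of 11 cycling cell markers was 9.84 to 10.90 in carcinomas, 8.80 to 9.17 in papillomas and 7.51 to 7.71 in normal tissue. The mean of 11 multiciliated cell markers was 7.76 to 8.48 in carcinomas, 7.59 to 7.69 in papillomas and 9.50 to 9.70 in normal tissue. The 8 neuron markers averaged 7.06 to 7.64 in carcinomas, 7.11 to 9.21 in papillomas and 8.14 to 8.59 in normal tissue, and papilloma arrays 2 and 4 were the high ones, at 9.21 and 8.38. The 10 macrophage markers averaged 7.92 to 9.08 in carcinomas, 7.99 to 8.09 in papillomas and 7.98 to 8.25 in normal tissue. Fibroblast and pericyte markers (8 genes) averaged 9.11 to 9.51 in carcinomas, 8.66 to 9.14 in papillomas and 9.82 to 9.97 in normal tissue. Oligodendrocyte markers (7 genes) averaged 7.15 to 7.77 in carcinomas, 7.45 to 8.13 in papillomas and 8.19 to 8.55 in normal tissue, and endothelial markers (8 genes) 8.93 to 9.38, 8.68 to 9.06 and 8.35 to 8.87 in the same groups. The means of epithelial, fibroblast and pericyte, oligodendrocyte and multiciliated markers were thus lower in every tumour array than in every normal array. That of cycling markers was higher. By the limma threshold used below, 3 of 11 multiciliated markers were higher and 7 lower in each tumour type. Of 8 fibroblast and pericyte markers 2 were higher in each, and 3 were lower in carcinoma and 5 in papilloma. Of all genes tested, 18.7% passed as higher and 19.2% as lower in carcinoma, and 17% and 16.3% in papilloma. The part of these cell types in the results below was not tested, and in bulk tissue fewer cells of a type and less RNA per cell cannot be told apart. Normal arrays 2 to 5 each held both the X-inactivation transcript Xist (10.69 to 12.48) and the Y-linked Uty (7.98 to 10.44), whereas every tumour array and normal array 1 held only one of the pair at such levels. Whether those normal arrays hold RNA of more than 1 animal was not tested, and if they do, the spread of normal tissue is not that between single animals. Results against normal tissue are therefore also given with normal array 1 alone, a lone array that is then assumed to vary like the arrays of the other groups.

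The E-box letters are shown for the network genes that hold them, because they are the element these proteins read. In RefSeq promoter windows (GRCm38.p6), the 250 bases before the annotated start were searched for CACGTG, which reads the same on both strands, and for the variant CACGCG on either strand. Of the 10 genes, 9 had a window in the table, and Myc did not. Exact CACGTG occurred in 3 of these 9 genes, beside 6.86% of all 27025 genes with a window, without matching for base composition. The stretches below run 5′ to 3′ on the gene's strand with the element in capitals.
Mxd4 (chr5:34187912-34187941, minus strand): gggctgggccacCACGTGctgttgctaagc
Mnt (chr11:74830789-74830818, plus strand): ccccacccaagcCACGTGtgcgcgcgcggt
Mlx (chr11:101087238-101087267, plus strand): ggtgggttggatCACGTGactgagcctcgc
Mycl, with the variant CACGCG (chr4:122995899-122995928, plus strand): ccaagccccgggCACGCGacgagatataaa
The element began 219 bases before the annotated start that the window of Mxd4 belongs to, 123 for Mnt, 40 for Mlx and 20 for Mycl. The RefSeq bounds of Mlx (from base 101086707) and Mycl (from base 122995588) begin before these stretches, so both stretches lie inside the gene. The bounds of Mnt (from base 74830806) begin within its stretch. A match of letters is a description of the window and not evidence of binding, and Max, Mxd1, Mxd3, Mxi1 and Mycn held neither form in theirs.

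In carcinomas 6 of the 10 genes were higher than in normal tissue by limma at a Benjamini-Hochberg adjusted p under 0.05, and none was lower. Among all genes tested, 37.9% passed that threshold and 18.7% passed it as higher. In papillomas 7 of the 10 genes were higher than in normal tissue and none lower, beside 33.2% of all genes that passed and 17% that passed as higher. Between the tumour types 3 of 10 differed, 1 higher and 2 lower in carcinoma, beside 11.4% of all genes, 6.24% higher and 5.17% lower. All members but Mycn and Mycl lay above the array median in all 15 arrays, whereas all genes tested include dim ones. With genes above the array median in fewer than 5 arrays left out, 56.3% of 14278 genes passed in carcinoma and 49.9% in papilloma. Between the tumour types 20.4% of them did. The shares of all genes beside the list counts below include the dim genes. The median log2 difference of the 10 genes was 0.53 in carcinoma and 0.62 in papilloma against normal tissue, where the medians of all genes were -0.02 and 0.01. It was -0.08 for carcinoma against papilloma, against -0.03 for all genes. Both tumour types share the same 5 normal arrays, so their comparisons with normal tissue are not independent of each other. Using normal array 1 alone, 4 of the 10 genes passed in carcinoma and 2 in papilloma, and 16% and 12.3% of all genes passed.

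**Figure D1:**
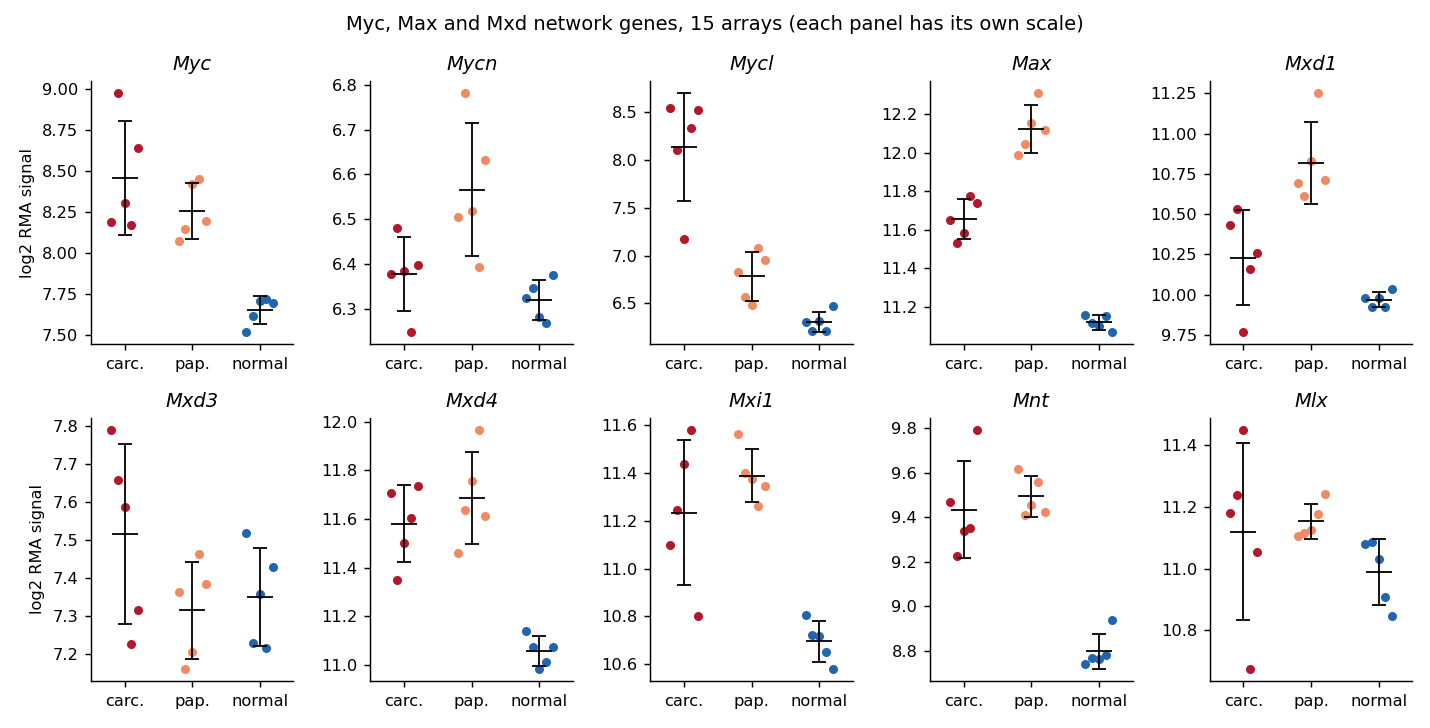
Log2 RMA signal (y axis) of each of the 10 network genes in the 5 carcinomas, 5 papillomas and 5 normal samples, with 1 point per array and the mean ± SD in black. Mycl is highest in carcinoma at 8.14 ± 0.57, Max and Mxd1 are highest in papilloma at 12.12 ± 0.12 and 10.82 ± 0.25, and Mxd3 overlaps among the 3 groups.

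Of the activating members, Mycl passed between the tumour types, while Myc and Mycn did not. Myc itself measured 8.19, 8.97, 8.31, 8.17 and 8.64 in the carcinomas, 8.07, 8.15, 8.42, 8.45 and 8.20 in the papillomas, and 7.52, 7.62, 7.71, 7.72 and 7.70 in normal tissue. All 10 tumour arrays lay above all 5 normal arrays, and the tumour types overlapped. The 95% interval of the difference was 0.52 to 1.09 for carcinoma against normal, 0.32 to 0.89 for papilloma against normal and -0.09 to 0.49 for carcinoma against papilloma. The first of these differences was 1.75-fold (adjusted p = 0.000166), the second 1.52-fold (adjusted p = 0.00228), and the last did not pass (adjusted p = 0.404). With normal array 1 alone the carcinoma difference was 0.94 (adjusted p = 0.0375) and the papilloma difference 0.74, which no longer passed (adjusted p = 0.108).

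Mycl, the L-Myc gene on chromosome 4, had the largest rise of the 10 genes in carcinoma. It measured 8.55, 8.10, 7.17, 8.33 and 8.52 in the carcinomas, 6.82, 6.57, 6.48, 7.08 and 6.96 in the papillomas, and 6.31, 6.21, 6.32, 6.21 and 6.48 in normal tissue. The 3 groups did not overlap, but the lowest papilloma (6.479) and the highest normal array (6.475) were nearly equal. Carcinoma array 3, at 7.17, stood nearer to the highest papilloma (7.08) than to the other carcinomas. The gene rose by 1.83 (SE 0.21, 3.56-fold, adjusted p = 3.37e-06) in carcinoma against normal tissue and by 1.35 (SE 0.21, 2.56-fold, adjusted p = 0.000691) in carcinoma against papilloma. The papilloma difference from normal tissue was 0.48 (95% interval 0.03 to 0.92) and did not pass (adjusted p = 0.0974), although all 5 papillomas were above all 5 normal arrays. This last value passed when carcinoma array 3 was left out, which brought its SE to 0.12 (adjusted p = 0.00596), with array quality weights (0.46, adjusted p = 0.0384) and in a fit on papilloma and normal arrays only (adjusted p = 0.00571). All 5 normal arrays and 2 of 5 papillomas had Mycl below the median of all probe sets on their array, while all 5 carcinomas had it above.

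Mycn, the N-Myc gene on chromosome 12, was below the array median in all 15 arrays. It measured 6.25 to 6.48 in carcinomas, 6.39 to 6.78 in papillomas and 6.27 to 6.38 in normal tissue. Papillomas were higher than normal tissue by 0.25 (SE 0.07, 1.19-fold, adjusted p = 0.0162) with no overlap. Carcinomas differed from normal tissue by 0.06 (95% interval -0.10 to 0.22, adjusted p = 0.594) and from papillomas by -0.19 (95% interval -0.35 to -0.03, adjusted p = 0.122). The papilloma call was lost with normal array 1 alone (0.24, adjusted p = 0.365).

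Max, the shared dimer partner of the Myc and Mxd proteins, was graded over the groups. It measured 11.65, 11.53, 11.58, 11.78 and 11.74 in carcinomas, 11.99, 12.04, 12.16, 12.31 and 12.12 in papillomas, and 11.16, 11.11, 11.10, 11.15 and 11.07 in normal tissue. The ranges of the 3 groups did not overlap, with papillomas highest and carcinomas between them and normal tissue. Against normal tissue Max rose 2.01-fold in papilloma (95% interval 0.85 to 1.16 on the log2 scale, adjusted p = 2.28e-08) and 1.45-fold in carcinoma (95% interval 0.39 to 0.69, adjusted p = 1.6e-05). It was lower in carcinoma than in papilloma by a log2 difference of -0.47 (SE 0.07, adjusted p = 0.000619). Of the 10 genes, Max had the smallest p in papilloma against normal tissue, and its 3 calls held in every alternative run.

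Max lies on chromosome 12 and Mxi1 on chromosome 19, whose genes were shifted down as a whole in some carcinomas. The median deviation of chromosome 12 genes from the normal mean was -0.18, -0.19, -0.28, -0.01 and -0.04 in carcinoma arrays 1 to 5, and between -0.07 and 0.00 in the papillomas. Carcinoma arrays 4 and 5, with the smallest shifts, had Max at 11.78 and 11.74, and the lowest papilloma was at 11.99. With the median shift of each autosome removed from the tumour arrays, Max differed by -0.35 (SE 0.06, adjusted p = 0.00206) between carcinoma and papilloma and by 0.68 between carcinoma and normal tissue (adjusted p = 3.67e-07). For Mycn the same step moved the tumour difference to -0.07 (adjusted p = 0.709). The shift removed was the median over all genes of the chromosome, dim ones included, and RMA compresses differences of dim probe sets. Whether it matches the shift of a bright gene such as Max or a dim one such as Mycn was not tested.

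**Figure D2:**
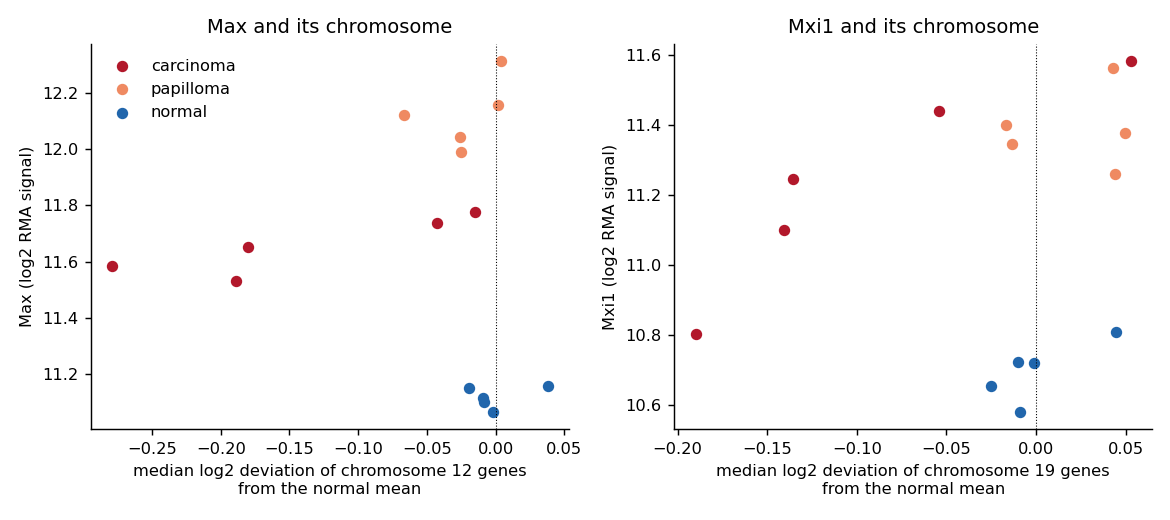
Log2 RMA signal of Max (left) and Mxi1 (right) on the y axis against the median log2 deviation of all genes of their chromosome from the normal mean on the x axis, with 1 point per array. Carcinoma arrays reach -0.28 on chromosome 12 and -0.19 on chromosome 19, and all 5 carcinomas lie below all 5 papillomas for Max.

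Among the repressive partners of Max, Mxd1 set the tumour types apart and Mxd4, Mxi1 and Mnt were higher than normal tissue in both tumour types. Mxd1, induced during differentiation in several lineages, measured 10.43, 10.53, 9.77, 10.16 and 10.26 in carcinomas, 10.69, 10.61, 10.83, 11.25 and 10.71 in papillomas, and 9.98, 9.92, 9.98, 9.93 and 10.04 in normal tissue. Every papilloma was above every carcinoma and every normal array, and carcinoma array 3 was below all normal arrays. The gene rose by 0.85 in papilloma against normal tissue (SE 0.14, 1.80-fold, adjusted p = 0.000118) and differed by -0.59 between carcinoma and papilloma (SE 0.14, adjusted p = 0.0103). The carcinoma difference from normal tissue was 0.26 (95% interval -0.03 to 0.55, adjusted p = 0.148), and it passed without carcinoma array 3 (0.38, adjusted p = 0.0183). The tumour difference missed the threshold in a fit on the 10 tumour arrays only (adjusted p = 0.0538) and in the same fit with sex, read from Xist, as a term (-0.61, adjusted p = 0.0663). With normal array 1 alone the papilloma difference was 0.84 (adjusted p = 0.0726).

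Mnt, a broadly expressed antagonist of Myc, measured 9.47, 9.22, 9.34, 9.35 and 9.79 in carcinomas, 9.62, 9.41, 9.45, 9.56 and 9.42 in papillomas, and 8.74, 8.77, 8.76, 8.78 and 8.94 in normal tissue. Both tumour types lay wholly above normal tissue and overlapped each other. Mnt was higher by 0.64 in carcinoma (SE 0.09, 1.56-fold, adjusted p = 4.44e-05) and by 0.70 in papilloma (SE 0.09, 1.62-fold, adjusted p = 2.3e-05). Its promoter window, like those of Mxd4 and Mlx, held the exact E-box shown above. Mlx passed in no comparison, and Max and Mxi1, higher in both tumour types, held neither form. A link between the element and these differences was not tested. The difference between the tumour types was -0.06, with a 95% interval of -0.26 to 0.14.

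Mxd4, also on the differentiation-linked side of the family, measured 11.35 to 11.73 in carcinomas, 11.46 to 11.97 in papillomas and 10.98 to 11.14 in normal tissue. No tumour array overlapped the normal ones. It rose by 0.52 in carcinoma (SE 0.09, adjusted p = 0.000324) and by 0.63 in papilloma (SE 0.09, adjusted p = 6.94e-05), and the tumour types differed by -0.11 (95% interval -0.31 to 0.10). Normal array 1 alone ended both calls (0.44, adjusted p = 0.151 in carcinoma, and 0.55, adjusted p = 0.0895 in papilloma).

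Mxi1, the family member also known as Mxd2, had 2 probe sets, of which the brighter was used. It measured 11.10, 11.24, 11.44, 11.58 and 10.80 in carcinomas, 11.56, 11.40, 11.38, 11.26 and 11.34 in papillomas, and 10.81, 10.72, 10.72, 10.65 and 10.58 in normal tissue. Papillomas lay above all normal arrays, while carcinoma array 5 fell just below normal array 1. Mxi1 rose by 0.54 in carcinoma (SE 0.12, adjusted p = 0.00165) and by 0.69 in papilloma (SE 0.12, adjusted p = 0.000217). The tumour types differed by -0.16 (95% interval -0.41 to 0.09). Carcinoma array 5 also had the lowest median of chromosome 19 genes, at -0.19, and with the chromosome shifts removed the tumour difference was -0.04 (adjusted p = 0.852). The dimmer probe set of Mxi1 gave 0.79 in carcinoma (adjusted p = 0.000166) and 0.99 in papilloma (adjusted p = 2.05e-05). With normal array 1 alone the differences were 0.43 (adjusted p = 0.264) in carcinoma and 0.58 (adjusted p = 0.143) in papilloma.

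Mxd3 passed in none of the 3 comparisons, although all 11 cycling cell markers were higher in carcinoma than in normal tissue. It measured 7.79, 7.66, 7.59, 7.23 and 7.32 in carcinomas, 7.36, 7.16, 7.20, 7.46 and 7.39 in papillomas, and 7.52, 7.23, 7.36, 7.22 and 7.43 in normal tissue. Carcinoma arrays 1 to 3 were above all papillomas and normal arrays, and arrays 4 and 5 were within them. The differences were 0.17 for carcinoma against normal (95% interval -0.06 to 0.39, adjusted p = 0.258), -0.03 for papilloma against normal (95% interval -0.26 to 0.19, adjusted p = 0.862) and 0.20 for carcinoma against papilloma (95% interval -0.03 to 0.43, adjusted p = 0.275). With array quality weights the first passed (0.30, adjusted p = 0.0196).

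Mlx, the partner shared by Mnt and the Mondo proteins, also passed in no comparison. It measured 11.18, 11.24, 11.45, 10.67 and 11.05 in carcinomas, 11.10, 11.12, 11.13, 11.18 and 11.24 in papillomas, and 11.08, 11.09, 11.03, 10.91 and 10.85 in normal tissue. The papillomas lay just above the normal arrays, and carcinoma array 4 lay below all others. The carcinoma difference was 0.13 (95% interval -0.11 to 0.37) and the papilloma difference 0.16 (95% interval -0.07 to 0.40). Without carcinoma array 4 the carcinoma difference was 0.24 (adjusted p = 0.0315).

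**Figure D3:**
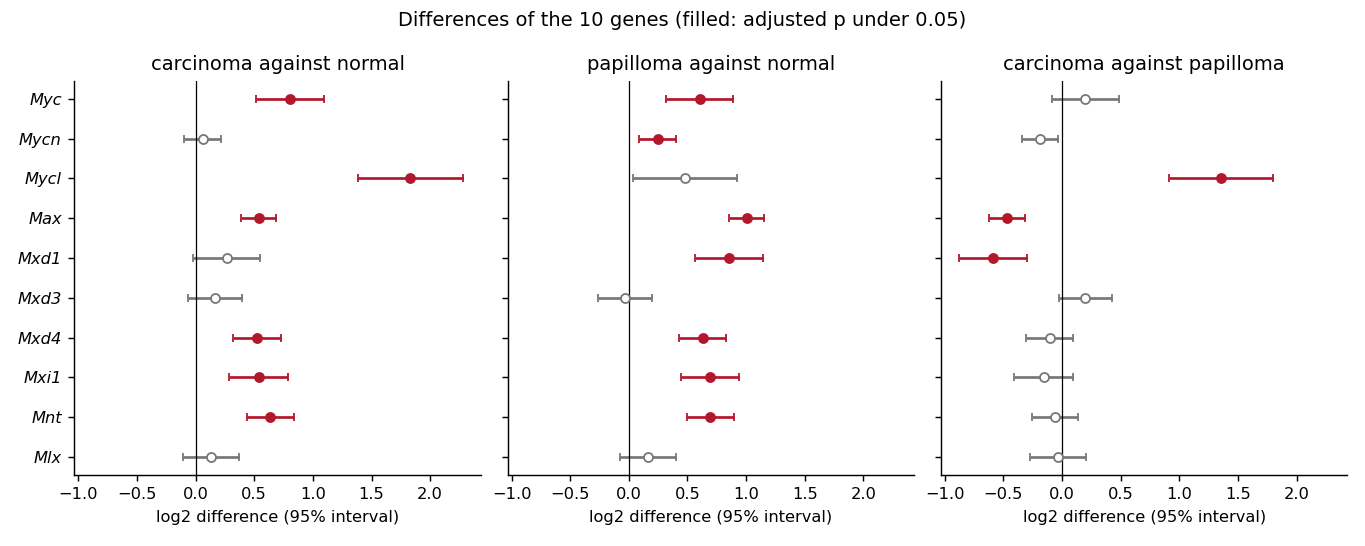
Log2 difference (x axis) of each of the 10 genes in carcinoma against normal, papilloma against normal and carcinoma against papilloma, with 95% intervals from limma and filled points where the adjusted p was under 0.05. Myc, Max, Mxd4, Mxi1 and Mnt are filled in both comparisons with normal tissue, and Mycl, Max and Mxd1 are filled between the tumour types.

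Counted by separation alone, 5 of 10 genes had no overlap between carcinoma and normal arrays, beside 29.9% of all genes. For papilloma against normal the count was 9 of 10, beside 32.1%. For carcinoma against papilloma it was 3 of 10, beside 7.9% (1 of them higher in carcinoma, beside 4.52%, and 2 lower, beside 3.39%). Myc, Mycn, Mxd4, Mxi1, Mnt, Mlx and Mxd3 had overlapping values in the tumour types. The order of the group means was papilloma, carcinoma, normal for Mycn, Max, Mxd1, Mxd4, Mxi1, Mnt and Mlx, and carcinoma, papilloma, normal for Myc and Mycl. Mxd3 alone ran carcinoma, normal, papilloma, with neighbours that did not differ beyond their spread.

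The 3 other genes of the extended network diverged. Mlxip, the MondoA gene, was 10.08 ± 0.17 in carcinomas, 10.01 ± 0.06 in papillomas and 9.21 ± 0.13 in normal tissue (SD, n = 5 each), a rise of 0.88 in carcinoma (limma adjusted p = 5.52e-07) and 0.80 in papilloma (adjusted p = 1.65e-06). Mlxipl, the ChREBP gene, was 7.33 ± 0.08 in carcinomas, 7.25 ± 0.09 in papillomas and 7.73 ± 0.13 in normal tissue, and fell by 0.40 and 0.48 on the log2 scale (limma adjusted p = 0.000391 and 7.6e-05). With normal array 1 alone the Mlxipl difference in carcinoma was -0.35 (adjusted p = 0.0891). Mga, a Max partner that works in a Polycomb-type repressor complex, was 10.97 ± 0.16 in carcinomas, 10.53 ± 0.27 in papillomas and 10.33 ± 0.12 in normal tissue. Mga rose by 0.64 in carcinoma against normal tissue (limma adjusted p = 0.00034), and its difference of 0.20 in papilloma did not pass (adjusted p = 0.22). Between the tumour types Mga was higher in carcinoma by 0.44 (limma adjusted p = 0.023), a call lost without carcinoma array 1 or 2 or papilloma array 3 (0.39 to 0.43, adjusted p = 0.0502 to 0.058), on the 10 tumour arrays only (adjusted p = 0.0761) and with sex as a term among them (adjusted p = 0.115).

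Genes known to be activated by Myc rose together in both tumour types. Of 48 measured genes of this list, 45 were higher and 0 lower in carcinoma than in normal tissue, with a median difference of 1.08, and 44 were higher and 1 lower in papilloma, with a median of 1.05. The share of all genes that passed as higher was 18.7% and 17%, and the share that passed as lower was 19.2% and 16.3%. Shmt2, a mitochondrial serine hydroxymethyltransferase, was 12.18 ± 0.08 in carcinomas, 11.80 ± 0.14 in papillomas and 9.90 ± 0.13 in normal tissue (SD, n = 5 each). Srm, the spermidine synthase, was 12.91 ± 0.19, 12.80 ± 0.10 and 10.77 ± 0.08 in carcinomas, papillomas and normal tissue. Polr1b, an RNA polymerase I subunit, rose by 1.99 in carcinoma and 1.98 in papilloma, and the nucleolar gene Gnl3 by 1.96 and 1.77. Odc1, the ornithine decarboxylase gene and a textbook Myc target, did not pass in either tumour type (0.16 and 0.06, limma adjusted p = 0.407 and 0.817), nor did Eif4e, the cap-binding translation factor gene (0.12 and 0.09). With normal array 1 alone, 37 genes were called higher in carcinoma and 35 in papilloma.

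Between the tumour types 6 of the 48 genes were higher in carcinoma, or 12.5% beside 6.24% of all genes, and 0 were lower, beside 5.17%. The median difference of the list was 0.03, beside -0.03 for all genes. The largest of these differences was that of Tert, the telomerase reverse transcriptase gene, at 7.54 ± 0.17 in carcinomas, 6.91 ± 0.18 in papillomas and 7.57 ± 0.10 in normal tissue (SD, n = 5 each). Tert was higher in carcinoma than in papilloma by 0.63 (limma adjusted p = 0.000745) and was the gene that fell in papilloma against normal tissue (-0.66, adjusted p = 6.36e-05). Its papilloma mean was close to the array medians of 6.79 to 6.90, which limits what these differences can show. Cdc25a, a phosphatase of the G1 to S step, was higher in carcinoma than in papilloma by 0.51 and Tcof1, a ribosome biogenesis gene, by 0.46 (limma adjusted p = 0.00711 and 0.0094). The count of 6 became 2 without papilloma arrays 2 and 4 and 3 with sex as a term among the tumours.

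The promoter search took all genes of this list with a window, also Apex1 and Phb, which hold the exact E-box but were not measured. The exact form was in the windows of 12 of the 46 genes, or 26.1%, beside 6.86% of all genes, without matching for base composition. The variant CACGCG was found in 26.1% of them as well, beside 8.65% of all genes, and in 33.3% of 9 genes of the list repressed by Myc. Eif4e, which passed in no comparison, had 2 copies of the exact form. Cdk4, the G1 kinase gene, had the most copies of the list, 4, and was chosen for display after the counts were seen. Its copies lie on chromosome 10 on the plus strand and begin 172, 118, 98 and 11 bases before the annotated start that the window belongs to.
First (chr10:127063351-127063380): atggcagccagtCACGTGccacacagcgta
Next (chr10:127063405-127063434): aagtcaaggggtCACGTGggatagcaacag
Next (chr10:127063425-127063454): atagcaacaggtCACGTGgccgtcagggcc
Last (chr10:127063512-127063534): aagggtgaagatCACGTGtccag
Cdk4 was 12.87 ± 0.12 in carcinomas, 12.75 ± 0.11 in papillomas and 11.70 ± 0.15 in normal tissue (SD, n = 5 each).

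Of 10 measured genes described as repressed by Myc, 4 were higher and 1 lower in carcinoma, and 3 higher and 1 lower in papilloma, against normal tissue. Called in either direction, these counts were 5 and 4 of 10, beside 37.9% and 33.2% of all genes. By direction, 40% were higher in carcinoma and 30% in papilloma, beside 18.7% and 17% of all genes. In each tumour type 10% were lower, beside 19.2% and 16.3%. Between the tumour types 3 of 10 were higher and 1 lower in carcinoma (30% and 10%, beside 6.24% and 5.17% of all genes). Cdkn1a, the p21 CDK inhibitor that p53 also induces, was 9.86 ± 0.59 in carcinomas, 12.73 ± 0.06 in papillomas and 10.66 ± 0.19 in normal tissue (SD, n = 5 each). It was lower in carcinoma than in papilloma by a log2 difference of -2.87 (SE 0.21, limma adjusted p = 1.46e-06). Ndrg1, which hypoxia also induces, ran the other way, at 12.33 ± 0.71 in carcinomas, 9.88 ± 0.85 in papillomas and 9.97 ± 0.18 in normal tissue, a tumour difference of 2.45 (SE 0.36, limma adjusted p = 0.000509). Cdkn1b, the p27 CDK inhibitor, was higher in carcinoma than in normal tissue by 0.65 and than in papilloma by 0.67 (limma adjusted p = 0.000434 and 0.00209). Thbs1, the gene of the angiogenesis inhibitor thrombospondin 1, rose by 0.98 in carcinoma and by 1.06 in papilloma, and Cdkn2b, the p15 CDK inhibitor, by 0.55 and 0.62.

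Of 18 coactivators and partners of Myc, 10 were higher and 2 lower in carcinoma, and 6 higher and 2 lower in papilloma. As shares, 55.6% of them were higher in carcinoma and 33.3% in papilloma, beside 18.7% and 17% of all genes, and 11.1% were lower in each, beside 19.2% and 16.3%. Kat2a, the GCN5 acetyltransferase, rose by 1.40 in carcinoma and by 1.15 in papilloma (SE 0.07 each, limma adjusted p = 4.69e-10 and 4.45e-09), Ruvbl2, an ATPase of chromatin remodelling complexes, by 0.96 and 0.65, and Wdr5, which helps to recruit Myc to chromatin, by 0.93 and 0.64. Mycbp, which encodes a Myc-binding protein, fell by 1.15 and 0.85 on the log2 scale (limma adjusted p = 7.33e-07 and 2.1e-05). Of 16 corepressor genes of Mxd, Mnt and Mga, 6 were higher and 1 lower in carcinoma, and 5 higher and 2 lower in papilloma, with medians of -0.01 and 0.00. In either direction 7 of the 16 passed in each comparison, beside 37.9% and 33.2% of all genes. By direction, 37.5% were higher in carcinoma and 31.25% in papilloma, beside 18.7% and 17% of all genes. Lower were 6.25% and 12.5%, beside 19.2% and 16.3%. Sap30, a Sin3 complex subunit, rose by 1.35 and 1.20, and Pcgf6, a subunit of the Mga complex, by 1.22 and 1.21. The deacetylase gene Hdac2 rose by 0.43 in both tumour types. Sin3b, the scaffold that Mxd proteins bind, fell by 0.81 in carcinoma on the log2 scale (limma adjusted p = 5.7e-05).

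Regulators of Myc protein stability rose in 12 of 20 cases and fell in 2 in carcinoma, and rose in 10 and fell in 1 in papilloma. The shares that rose were 60% in carcinoma and 50% in papilloma, beside 18.7% and 17% of all genes, and those that fell were 10% and 5%, beside 19.2% and 16.3%. The largest rises in carcinoma were those of Plk1 and Aurka, mitotic kinases that also stabilise Myc proteins. Plk1 was higher 8.58-fold in carcinoma and 2.37-fold in papilloma, and Aurka 7.99-fold and 2.54-fold. Both are also cell cycle genes and moved with the cycling cell markers. Cip2a, an inhibitor of the phosphatase that destabilises Myc, was 9.35 ± 0.40 in carcinomas, 7.92 ± 0.28 in papillomas and 6.60 ± 0.27 in normal tissue (SD, n = 5 each), and was higher in carcinoma than in papilloma by 1.43 (limma adjusted p = 0.000182). Skp2, a ubiquitin ligase subunit that acts on Myc and on p27, was higher in carcinoma than in papilloma by 1.09 (limma adjusted p = 0.00118). The means of Cip2a and Skp2 had the same order of groups as the cycling cell markers. Between the tumour types 5 of the 20 regulators were higher in carcinoma (25%, beside 6.24% of all genes) and 1 was lower (5%, beside 5.17%). The lower one was Btrc (-0.49, limma adjusted p = 0.0326). Fbxw7, the ubiquitin ligase subunit that marks Myc for degradation, fell by 0.75 in carcinoma against normal tissue on the log2 scale (limma adjusted p = 0.00255). Its difference in papilloma was -0.36 and did not pass (adjusted p = 0.137). Usp36, a nucleolar deubiquitinase of Myc, rose by 1.46 in carcinoma and by 1.11 in papilloma (limma adjusted p = 6.52e-09 and 1.34e-07).

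Glucose-responsive genes of the Mondo and Mlx arm rose in 7 of 11 cases and fell in 1 in carcinoma, and rose in 8 and fell in 1 in papilloma. The shares that rose were 63.6% in carcinoma and 72.7% in papilloma, beside 18.7% and 17% of all genes. Those that fell were 9.1% in each, beside 19.2% and 16.3%. Txnip, the thioredoxin-interacting protein gene and a direct MondoA target, rose by 1.09 in carcinoma and by 1.14 in papilloma (SE 0.10 each, limma adjusted p = 3.42e-07 and 2.4e-07). Arrdc4, an arrestin-related MondoA target, rose by 0.81 and 1.21. Fasn, the fatty acid synthase gene, rose by 1.05 in carcinoma and 1.27 in papilloma, and Hk2, a hexokinase gene, by 2.03 and 1.71. Scd1 fell by 0.37 and 0.55 on the log2 scale (limma adjusted p = 0.00936 and 0.00048). Between the tumour types 0 genes of the list were higher in carcinoma, beside 6.24% of all genes, and 2 of 11 were lower, beside 5.17%. Of these Elovl6, a fatty acid elongase, differed by -0.45 (limma adjusted p = 0.009, and 0.0669 with sex as a term among the tumours).

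Of the list genes given above with values against normal tissue, calls ended with normal array 1 alone for Cdkn1a, Cdkn1b, Ndrg1, Cdkn2b, Thbs1, Sin3b, Hdac2, Fbxw7, Scd1 and Mlxipl in carcinoma. In papilloma they ended for Tert, Cdkn2b, Thbs1, Ruvbl2, Sap30, Hdac2, Plk1, Aurka, Hk2 and Scd1.

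**Figure D4:**
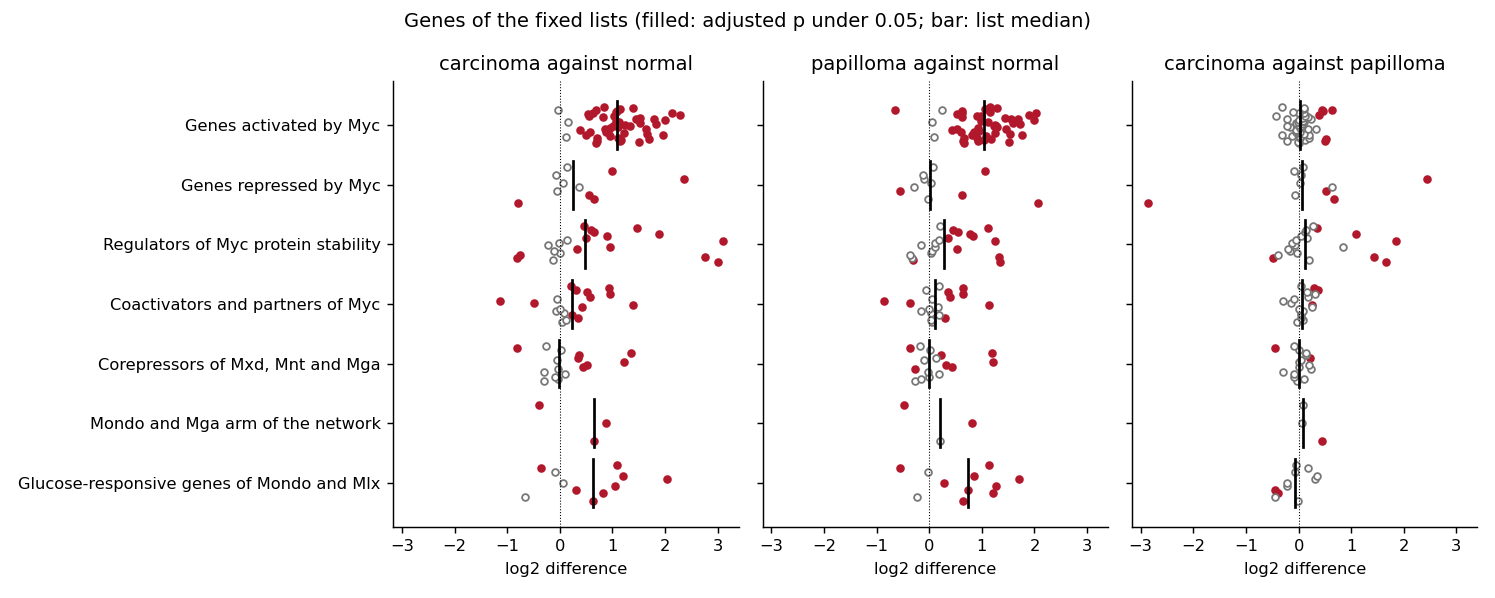
Log2 difference (x axis) of each measured gene of 7 lists around the network (rows) in the 3 comparisons, with filled points where the limma adjusted p was under 0.05 and a bar at the list median. Genes activated by Myc have medians of 1.08 in carcinoma and 1.05 in papilloma against normal tissue and 0.03 between the tumour types.

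The genes most like Myc, Mycl and Mnt over the 15 arrays were found as those with the smallest root mean square difference between values centred on each gene's own mean. For Myc, whose values had an SD of 0.41 over the arrays, these were Ddx47 (0.15), Cbx3 (0.15), Map3k8 (0.15), Abitram (0.16) and Csnk1e (0.16). For Mycl, with an SD of 0.87, they were Cdc25b (0.26), BC055324 (0.31), Dsn1 (0.34), Parpbp (0.34) and Tspan15 (0.35). Cdc25b, a phosphatase that starts mitosis, averaged 9.28 in carcinomas, 8.08 in papillomas and 7.70 in normal tissue. For Mnt, with an SD of 0.35, they were Tbl2 (0.10), Agap1 (0.10), Hspa9 (0.11), Srfbp1 (0.12) and Lamc1 (0.12).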

How the data were processed

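Per the submitters' processing notes, the deposited log2 values are RMA summaries per probe set made in Affymetrix Expression Console. RMA subtracts background, gives the arrays a common intensity distribution and compresses differences of dim probe sets. The common distribution hides a change shared by most genes. The build of the probe set design and the program's version are not stated in the sources used here. The 15 array medians were 6.79 to 6.90. Arrays have no read depth, and their number limits precision. Of 41345 probe sets, 23521 were paired with 1 gene symbol, and the set with the highest mean stood for each of 22180 genes, with symbols updated through RefSeq identifiers (GRCm38.p6).

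Groups came from the sample titles. Per the series description, samples came from different mice, which does not say whether a sample held tissue of 1 animal. Limma 3.58.1 in R 4.3.3 was fitted to all 15 arrays (12 residual degrees of freedom) with the group as its only term and moderated variances. Two-sided p-values were adjusted over all genes (Benjamini-Hochberg), and the threshold was 0.05. The procedure was tested on simulated arrays with changes added in carcinomas and each gene's spread the same in all groups. The simulation therefore cannot show how the fit does where the groups differ in spread. The 10 genes, the lists and the alternatives were chosen with earlier results of these data known. All 10 genes, Mlxip, Mlxipl and Mga are named, and from each list up to 4 called genes with the largest change in its prevailing direction and up to 2 opposed to it, of which some are given. Odc1, Eif4e and Cdk4, and values of named genes in comparisons where the rule did not pick them, were added after their values were seen. The replicate numbers were not used as a block, because same-numbered arrays did not deviate together. Alternatives were the replicate block, array quality weights, a variance trend, fits on the 2 groups compared, quantile or median scaling, other treatments of probe sets and dim genes, removal of chromosome-wide shifts and leaving out each array. The fits with normal array 1 alone, without papilloma arrays 2 and 4, with tumour sex, and with the other Mxi1 probe set were added after seeing the data. Promoter windows are RefSeq's.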

Additional observations from a re-analysis of the deposited data

Results flagged for a closer look

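Of 30 groups of 5 arrays (10 genes in 3 tissues) examined for a single array far from the rest, 1 stood out. Mnt in normal tissue had array 5 at 8.94 above the other 4 arrays at 8.74 to 8.78, a gap of 0.791 of the group's whole range, past the critical value of 0.71 for 5 samples. Chance gives such a gap in about 1 of 20 groups. Both tumour types remained above this array.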

How the results depend on the processing

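Over the alternatives, 785 of 800 values of the 10 genes kept their direction and their side of the threshold, 9 lost a call, 6 gained one and 0 reversed. The number of the 10 genes called was 6 to 7 in carcinoma, 7 to 8 in papilloma and 3 between the tumour types when each array was left out in turn. With the replicate block, 6, 7 and 3 genes were called, as without it. Only 2 of 15 same-numbered pairs of arrays correlated above 0.1 in their deviations (-0.10 to 0.14), and 2 of 15 correlated best with their own number. With normal array 1 alone, chosen after seeing the data and with 1 array assumed to vary like the other groups, 2 of the 10 genes were called in papilloma, and of 126 list genes 60 were called in carcinoma (94 with all arrays) and 51 in papilloma (86). Between the tumour types 24 list genes were called, against 13 on the 10 tumour arrays only, 12 with sex as a term and 11 without papilloma arrays 2 and 4, the last 2 settings chosen after seeing the data. These settings also use fewer arrays or an added term, and the cause of the lower counts was not tested. Mycn, and Mycl in normal tissue, lie below the array median, which limits what their differences can show.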
